A study of Mus musculus with 17 samples.

Results

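Transcripts of 8 transcription factors of myeloid blood formation were followed in bulk RNA sequencing of mouse haematopoietic stem cells (HSCs). The factors were the C/EBP proteins encoded by Cebpa, Cebpb, Cebpd, Cebpe and Cebpg, the ETS factor PU.1 encoded by Spi1, the repressor Gfi1 and the interferon regulatory factor Irf8. They were taken by their gene symbols on the mouse build GRCm38 from the 54838 genes that each library's table lists, and none was left out. All 8 were among the 24523 genes that had enough reads to be tested. The study sorted HSCs from young and old C57BL/6 Jrj mice, with and without a compound acting on mitochondria, and made 17 libraries in 4 groups. Old Mito-Q mice (n = 5 libraries) were over 18 months old and received 5 intraperitoneal injections, 1 per day, of the mitochondria-targeted antioxidant Mito-Q at 2 mg/kg. Old control mice (n = 3) were also over 18 months old. Young CCCP mice (n = 5) were 8 to 12 weeks old and received 1 injection of CCCP, an uncoupler that lowers the mitochondrial membrane potential, at 0.3 mg/kg. Young control mice (n = 4) were of the same young age. The labels name no genetic change in any group. Whether controls were given a vehicle, how long after the last injection the marrow was taken, and whether each library stood for its own mouse were not given in the sources used here. The p-values below therefore measure the spread between libraries, which may be technical.

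As background, C/EBP proteins bind DNA as dimers through a basic leucine zipper, and different members act at different steps of myeloid differentiation. PU.1 is required for the myeloid and B cell branches, and the choice between neutrophils and monocytes is known to turn on Gfi1 and C/EBP factors on the neutrophil side and on Irf8 with PU.1 on the monocyte and dendritic cell side. In HSCs these genes are known to be transcribed at low to moderate levels, and Cebpb and Cebpd are also known as genes that inflammatory signals induce.

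The start of the Cebpb gene is shown first because Cebpb was the 1 member whose transcript differed between groups by the test used. Beside it stand Jun, whose level across the 17 libraries was closest to that of Cebpb, and Cebpa, a C/EBP gene with few reads in these cells. Each sequence is the 250 bases before the start in RefSeq (GRCm38.p6), read 5′ to 3′ on the strand of the gene. Cebpb is chr2:167688665-167688914 on the plus strand, Jun is chr4:95052223-95052472 on the minus strand and Cebpa is chr7:35119043-35119292 on the plus strand. Capitals mark the TATA box TATAAA, the GC box core GGGCGG and the CREB and ATF core TGACG on either strand.
Cebpb: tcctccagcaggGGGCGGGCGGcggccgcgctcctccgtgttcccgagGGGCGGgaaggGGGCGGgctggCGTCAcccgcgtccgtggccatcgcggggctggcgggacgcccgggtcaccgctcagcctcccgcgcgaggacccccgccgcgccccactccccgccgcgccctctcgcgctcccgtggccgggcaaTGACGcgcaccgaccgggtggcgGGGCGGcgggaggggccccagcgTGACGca
Jun: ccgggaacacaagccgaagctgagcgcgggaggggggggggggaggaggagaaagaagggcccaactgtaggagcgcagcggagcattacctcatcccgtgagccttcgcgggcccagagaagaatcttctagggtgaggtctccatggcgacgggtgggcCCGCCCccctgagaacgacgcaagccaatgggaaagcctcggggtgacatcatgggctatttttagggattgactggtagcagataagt
Cebpa: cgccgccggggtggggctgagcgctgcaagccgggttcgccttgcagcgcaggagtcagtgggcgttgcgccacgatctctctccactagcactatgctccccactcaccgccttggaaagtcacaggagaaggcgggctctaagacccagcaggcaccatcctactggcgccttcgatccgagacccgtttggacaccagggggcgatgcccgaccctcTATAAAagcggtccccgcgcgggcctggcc

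The Cebpb window held GGGCGG, the core of an Sp1-type GC box, 5 times, with the first base of the motif 238, 234, 202, 191 and 30 bases before the start. The first pair overlapped by its letters. TGACG, the core shared by CREB and ATF sites, stood 3 times in it, at 180 bases (on the reverse strand), 53 bases and 7 bases before the start, and the copy nearest the start read TGACGCA. The shorter TGACG and the longer TGACGCA were added to the search after the window had been read. Of 32851 RefSeq promoter windows of this length, 32.7% held GGGCGG, 17.8% held TGACG and 1.75% held TGACGCA on either strand. Not found in the Cebpb window were the TATA box TATAAA (in 12.4% of all windows), the full CREB site TGACGTCA (1.55%), its shorter form TGACGT (6.47%), the AP-1 motif TGANTCA (6.75%), the C/EBP motif TTGCNNAA (9.56%), the ETS core GAGGAA (23.3%) and the letters CCAAT (33.8%). The Jun window held GGGCGG 1 time, on the reverse strand at 89 bases, and CCAAT at 65 bases. It also reads tgacatca, 1 letter from TGACGTCA. The search took the motifs only as written, so such variants were not counted in any window. TATAAA stood 30 bases before the start of Cebpa. Of the 8 factors, 5 had a window in the RefSeq table, and 7 windows were searched for them, because Gfi1 and Irf8 each had 2 starts. One window of Irf8, that of the start at the 5′ end of the gene, held TATAAA at 31 bases, and the other Irf8 window did not. A match describes the letters and does not show that a factor binds there.

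On GRCm38 with the GENCODE M21 annotation, Cebpb (ENSMUSG00000056501) is a gene of 1 exon and 1504 bases on chromosome 2, from 167688915 to 167690418. Cebpa (ENSMUSG00000034957, chromosome 7, 35119293 to 35121928) and Cebpd (ENSMUSG00000071637, chromosome 16, 15887286 to 15891031) also have 1 exon. Cebpe (ENSMUSG00000052435) lies on chromosome 14 from 54710360 to 54712174 and Cebpg (ENSMUSG00000056216) on chromosome 7 from 35046422 to 35056573, close to Cebpa. Spi1 (ENSMUSG00000002111) lies on chromosome 2 from 91082390 to 91115756, Gfi1 (ENSMUSG00000029275) on chromosome 5 from 107716657 to 107726036 and Irf8 (ENSMUSG00000041515) on chromosome 8 from 120736358 to 120756694. Exons of an antisense gene cover 312 bases (20.7%) of Cebpb, from Tmem189, and 562 bases (15%) of Cebpd, from Spidr. Whether the counting used strand was not given in the sources used here, so reads from these stretches could not be assigned with certainty to either gene.

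Libraries held between 5649611 and 8120443 reads in genes, and the share of reads assigned to no gene ran from 37.7% to 76.2%. It was above 60% in 3 libraries, old control 1 (68.8%), young CCCP 1 (60.6%) and young CCCP 3 (76.2%). Young CCCP 3 had the lowest median rank correlation with the other libraries, at 0.682, followed by old control 1 at 0.799 and young control 3 at 0.803. Each deposited name carries a letter, called the well letter here, whose meaning was not given in the sources used here. The letter was A for every old library and for young controls 1 and 2. It was C for every young CCCP library and young controls 3 and 4. The labelled gate was lineage-negative c-Kit+ Sca-1+ CD48- CD150+, and transcripts of its 3 positive markers were present in every group. Kit averaged 784 CPM in old Mito-Q, 553 CPM in old control, 1298 CPM in young CCCP and 1127 CPM in young control libraries, where CPM is counts scaled to library size with TMM factors. Slamf1, which encodes CD150, averaged 161, 96.7, 69.4 and 51.9 CPM in the same order of groups, and Ly6a, which encodes Sca-1, averaged 397, 596, 176 and 250 CPM. Cd48, whose protein the gate selects against, reached 17.5 CPM in old Mito-Q, 0.714 CPM in old control, 19.2 CPM in young CCCP and 4.64 CPM in young control libraries, and its lowest library was at 0 in every group. Transcripts of neutrophil granules were also present in every library of this lineage-negative gate, and their levels are given with Cebpe.

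Of the 8 factors, Cebpb was the 1 called gene (adjusted p below 0.05 over all tested genes in edgeR's quasi-likelihood test) in 3 of the 4 group comparisons, and no factor was called in the other. It was higher in old Mito-Q than in old control, where 0.542% of all tested genes were called in either direction and 0.526% were called higher. It was lower in young CCCP than in young control, where 0.718% were called and 0.652% were called lower. It was also lower in old control than in young control, where 1.69% were called and 1.17% were called lower. Between old Mito-Q and young control 0 of 8 factors were called by edgeR and 0 by DESeq2, against 0.143% of all genes by edgeR and 1.16% by DESeq2, and 1 factor, Cebpd, had an unadjusted p below 0.05. At that unadjusted threshold 2 factors passed between old Mito-Q and old control (10% of all genes), 2 between young CCCP and young control (11.2%), 1 between old control and young control (14.2%) and 1 between old Mito-Q and young control (7.89%). The pair with CCCP were Cebpb and Cebpe, and Cebpe had enough reads only through groups in which it was high. The median log2 fold change of the 8 factors was 0.93 between old Mito-Q and old control, against -0.12 for all tested genes. It was 0.06 between young CCCP and young control, against 0.21 for all genes. It was -0.18 between old control and young control, against 0.17 for all genes, and 0.49 between old Mito-Q and young control, against 0.005 for all genes. The median of 0.93 lay between the values of Cebpa (0.97, SE 2.01) and Gfi1 (0.88, SE 0.87). Cebpa and Cebpe passed the read filter through groups in which they were high, so nothing is read from these medians. Young controls served in 3 of these comparisons and old controls in 2, so the comparisons are not independent of each other.

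**Figure D1:**
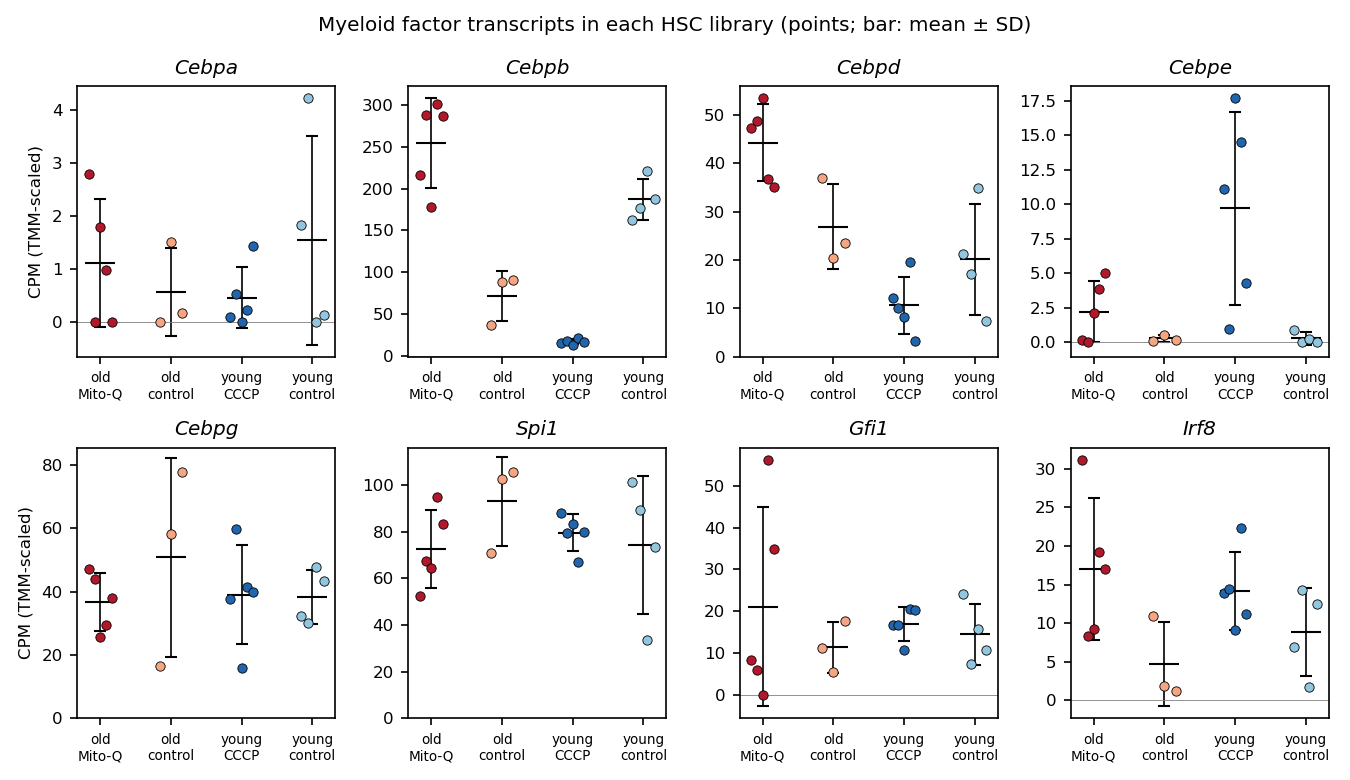
Level of each factor in CPM (counts scaled to library size with TMM factors) in each of the 17 libraries, by group; points are libraries and bars are the mean ± SD. Cebpb separates young CCCP (13.4 to 21.1 CPM) and old control (37.3 to 90.5 CPM) from the other groups, whereas the groups overlap for Spi1, Cebpg, Gfi1 and Irf8.

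Cebpb, a C/EBP factor known for its part in granulocyte production under stress, had the smallest adjusted p of the 8 with each compound and in old against young controls. Some other factors had larger fitted log2 fold changes with larger errors, among them Cebpe with both compounds, Irf8 with Mito-Q and Cebpa in old against young controls. In young CCCP libraries it was measured at 14.9, 17.4, 13.4, 21.1 and 16.5 CPM, against 163, 177, 221 and 188 CPM in young control libraries. All 5 CCCP libraries lay far below the lowest young control, and the CCCP libraries lay close to each other. Its mean was 16.7 ± 2.91 CPM with CCCP (SD, n = 5) and 187 ± 24.5 CPM in young controls (SD, n = 4), an 11.2-fold lower level with CCCP (log2 fold change -3.49, SE 0.30, adjusted p = 2.24e-08, edgeR's quasi-likelihood test with Benjamini-Hochberg adjustment). Among all tested genes 2.89% had every CCCP library below every young control, and Cebpb was 1 such factor. With young CCCP 3 and young control 3 left out the log2 fold change was -3.32 (adjusted p = 1.29e-07, edgeR), and within the libraries of well letter C it was -3.62 (adjusted p = 0.000487, edgeR). In bulk libraries, fewer cells carrying a transcript and less of it per cell cannot be told apart.

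In old Mito-Q libraries Cebpb was measured at 216, 289, 179, 301 and 287 CPM, against 37.3, 87.8 and 90.5 CPM in old control libraries. Every Mito-Q library lay above every old control, as in 3.87% of all tested genes, and old control 1 was the lowest of its group. Cebpb averaged 254 ± 53.8 CPM with Mito-Q (SD, n = 5) and 71.9 ± 29.95 CPM in old controls (SD, n = 3), a 3.54-fold higher level with Mito-Q (log2 fold change 1.82, SE 0.33, adjusted p = 0.00295, edgeR). Leaving out old control 1 gave 1.46 (adjusted p = 0.0444, edgeR). Both old groups carried the same well letter.

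Old controls also had less Cebpb than young controls, with each of the 3 old libraries below each of the 4 young ones, a separation that 6.5% of all tested genes showed. The log2 fold change was -1.38 (SE 0.33, adjusted p = 0.0258, edgeR), a 2.60-fold lower level in old controls. This call was close to its threshold. It was lost without any 1 of the old controls (adjusted p between 0.0963 and 0.127), without young control 3 (0.0528) or young control 4 (0.0596), and within well letter A (log2 fold change -1.26, adjusted p = 0.130, edgeR). Between old Mito-Q and young control the libraries overlapped, and Cebpb differed by 0.44 on the log2 scale (SE 0.28, adjusted p = 0.791, edgeR).

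Taking the groups in order of mean level, old Mito-Q stood first, then young control, old control and young CCCP. The first pair of neighbours overlapped and the other 2 pairs did not. The CCCP effect in young mice and the Mito-Q effect in old mice share no library, and the difference between them was itself tested. For Cebpb the CCCP effect minus the Mito-Q effect was -5.31 on the log2 scale (SE 0.45, adjusted p = 9.27e-09, edgeR), where 1.26% of all genes were called and 1.11% were called lower. Cebpb was 1 of 8 factors called in that test, and at an unadjusted p below 0.05 Cebpd was the other, where 12.2% of all genes passed. Age differs between the arms of this difference together with the compound. Tmem189, which overlaps Cebpb on the other strand, averaged 39.8 CPM in old Mito-Q, 31.6 CPM in old control, 23.4 CPM in young CCCP and 23.5 CPM in young control libraries, and was not called in any of the 5 tests.

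**Figure D2:**
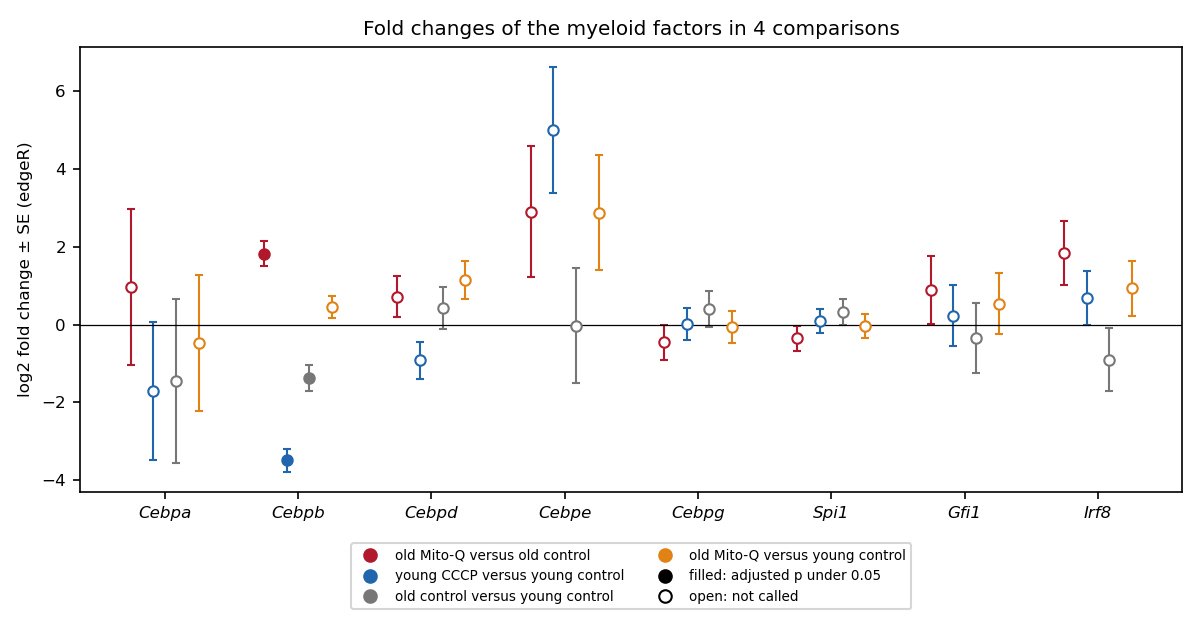
Log2 fold change ± SE of each factor in 4 comparisons from edgeR; filled points have an adjusted p below 0.05 and open points do not. The filled points are those of Cebpb, at 1.82 for old Mito-Q versus old control, -3.49 for young CCCP versus young control and -1.38 for old control versus young control.

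The genes whose log2 CPM was most like that of Cebpb over the 17 libraries, of 11623 searched, were Jun (Pearson r = 0.978), Pnrc1 (r = 0.968) and Fosb (r = 0.957). Jun and Fosb encode AP-1 subunits and Pnrc1 a nuclear receptor coactivator. These r values include the differences between groups, which the libraries of a group share. For deviations from the group means r was 0.498 for Jun, 0.814 for Pnrc1 and 0.340 for Fosb. Jun averaged 2498 ± 516 CPM in old Mito-Q, 460 ± 163 CPM in old control, 98.0 ± 39.6 CPM in young CCCP and 1401 ± 186 CPM in young control libraries (SD). Its groups thus stood in the same order as those of Cebpb. For Pnrc1 and Fosb young control stood first, at 698 and 920 CPM, ahead of old Mito-Q, at 675 and 729 CPM. Pnrc1 fell with CCCP (log2 fold change -1.80, adjusted p = 8.87e-05, edgeR). It was not called with Mito-Q (0.73, adjusted p = 0.367, edgeR) or in old against young controls (-0.78, adjusted p = 0.212, edgeR).

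Jun and Fosb belong to a list of 25 immediate early genes, transcribed within minutes of stimulation, which does not hold Cebpb. With Mito-Q 20 of the 25 rose and 0 fell against old controls in edgeR, with a median log2 fold change of 4.07. With CCCP 21 fell and 0 rose against young controls, with a median of -4.24. In old controls 19 fell and 0 rose against young controls, with a median of -3.14. Of all tested genes 0.526% were called higher with Mito-Q, 0.652% lower with CCCP and 1.17% lower in old controls. Medians over all tested genes were -0.12, 0.21 and 0.17 in that order. Egr3 of the 25, at most 0.707 CPM in old controls and 0.270 CPM with CCCP, passed the read filter through groups in which it was high. Nothing is therefore read from these counts and medians. The summed level of the list ran from 18820 to 32630 CPM in old Mito-Q, from 1629 to 2642 CPM in old control, from 740 to 1570 CPM in young CCCP and from 9999 to 17890 CPM in young control libraries. It thus moved with Cebpb, and its part in the Cebpb result was not tested. The ranges of the sum did not overlap between any 2 groups, whereas Cebpb overlapped between old Mito-Q and young control. Young control 3 had the lowest sum of its group and the highest Cebpb.

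**Figure D3:**
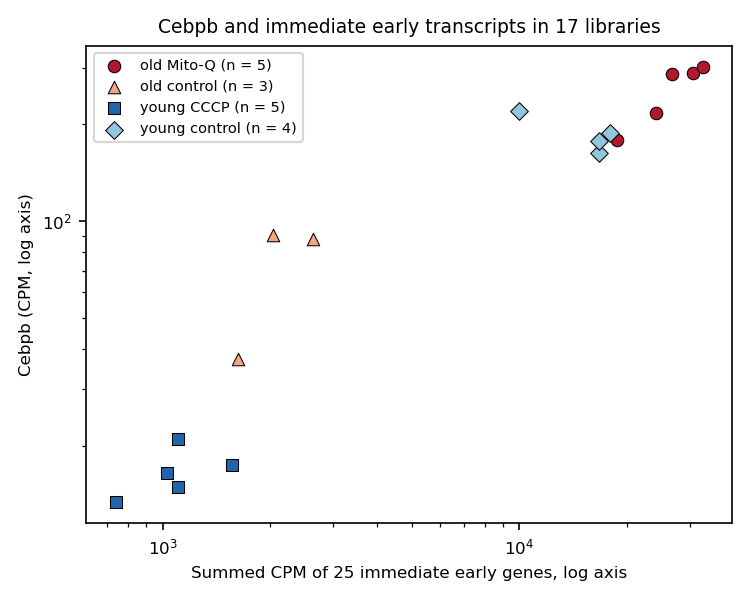
Cebpb in CPM against the summed CPM of 25 immediate early genes in the 17 libraries, both on log axes, with a symbol for each group. Young CCCP libraries sit at the lower left (740 to 1570 CPM of immediate early transcripts), old controls next (1629 to 2642 CPM), and young control and old Mito-Q libraries at the upper right (9999 to 32630 CPM).

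Among 13 relatives and regulators of C/EBP factors, Trib1 and Atf4 were the ones that passed the test in any comparison. Trib1 encodes a pseudokinase that directs C/EBP proteins to degradation. It averaged 113 ± 38.7 CPM in old Mito-Q, 10.4 ± 6.21 CPM in old control, 11.1 ± 12.6 CPM in young CCCP and 75.6 ± 30.3 CPM in young control libraries (SD). It rose with Mito-Q (log2 fold change 3.45, SE 0.71, adjusted p = 0.014, edgeR), and fell with CCCP (-2.79, SE 0.57, adjusted p = 0.0119) and in old controls against young controls (-2.87, SE 0.70, adjusted p = 0.0318). Atf4, a leucine zipper factor of the integrated stress response, fell with CCCP (-1.56, SE 0.29, adjusted p = 0.00331, edgeR), at 73.1 ± 15.9 CPM with CCCP and 215 ± 62.2 CPM in young controls (SD). The other 11 genes, among them Stat3, Nfil3, Ddit3 and the IL-6 receptor chains, were not called by edgeR in any of the 5 tests. Of the 13, DESeq2 called 4 lower in old against young controls and 3 lower with CCCP. With Mito-Q against old controls it called 2 higher. Over all genes DESeq2 called 1435, 666 and 552 in these comparisons, in either direction.

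Cebpd, a C/EBP factor of the acute phase response, was measured at 47.3, 48.7, 53.4, 36.8 and 35.0 CPM in old Mito-Q libraries, against 36.9, 20.4 and 23.5 CPM in old control libraries. In young CCCP libraries it stood at 12.1, 10.01, 8.17, 19.5 and 3.20 CPM, against 21.2, 17.1, 34.8 and 7.41 CPM in young control libraries. The groups overlapped in both pairs, and young control 4 lay among the CCCP libraries. Every old Mito-Q library was above every young control, as in 1.65% of all tested genes, and Cebpd was the 1 factor of which this held.

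The log2 fold changes of Cebpd were 0.72 for old Mito-Q against old control (SE 0.53, adjusted p = 0.725, edgeR), -0.92 for young CCCP against young control (SE 0.48, adjusted p = 0.493), 0.43 for old control against young control (SE 0.54, adjusted p = 0.805) and 1.14 for old Mito-Q against young control (SE 0.49, adjusted p = 0.579). The last had an unadjusted p of 0.0277. The CCCP effect minus the Mito-Q effect was -1.63 (SE 0.72, unadjusted p = 0.0316, adjusted p = 0.349). Signs were as for Cebpb with each compound, but none of these values passed the test. Mean levels were 44.3 ± 7.97 CPM in old Mito-Q, 26.9 ± 8.76 CPM in old control, 10.6 ± 5.98 CPM in young CCCP and 20.1 ± 11.4 CPM in young control libraries (SD). Ordered by mean, each group overlapped the next. Spidr, antisense to Cebpd, averaged 26.3 CPM in old Mito-Q, 18.8 CPM in old control, 42.0 CPM in young CCCP and 51.9 CPM in young control libraries. The genes most like Cebpd were Tm4sf1 (r = 0.840 over 17 libraries, 0.516 for deviations from group means), Bmp4 (0.823 and 0.453) and Hk2 (0.794 and 0.304).

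Cebpe, the C/EBP factor needed for the last steps of granulocyte maturation and for secondary granule genes, was low in most libraries and higher in 4 CCCP libraries. It had 112, 7, 91, 122 and 27 reads in young CCCP libraries, against 7, 0, 1 and 0 reads in young control libraries. Scaled, these were 11.1, 0.947, 17.7, 14.5 and 4.32 CPM with CCCP, against 0.920, 0, 0.218 and 0 CPM in young controls. Each CCCP library lay above each young control, as in 1.78% of all tested genes, though CCCP 2 exceeded young control 1 by a small margin.

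In old Mito-Q libraries Cebpe had 1, 0, 13, 24 and 32 reads, against 1, 3 and 1 reads in old control libraries. A count of 0 allows up to 3 reads, which was between 0.298 and 0.653 CPM depending on the library, and this covers counting error only. By that measure 8 of the 17 libraries were at or under 3 reads. Of the Mito-Q libraries 3 lay above this floor and 2 within it. Cebpe passed the read filter through young CCCP and old Mito-Q libraries, the groups in which it was high.

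The log2 fold change of Cebpe was 5.00 with CCCP against young control (SE 1.62), which edgeR did not call (unadjusted p = 0.00496, adjusted p = 0.246) and DESeq2 did (5.23, SE 1.29, adjusted p = 0.00376). DESeq2 called 3.32% of the genes it tested in that comparison. Because Cebpe reached the tests through the groups in which it was high, its call is given as a value and nothing is read from a count that includes it. Across the edgeR alternatives its adjusted p for CCCP lay between 0.175 and 0.562. It was 2.91 for old Mito-Q against old control (SE 1.68, adjusted p = 0.591, edgeR), 2.88 for old Mito-Q against young control (SE 1.48, adjusted p = 0.660) and -0.03 for old control against young control (SE 1.48, adjusted p = 1.0). The CCCP effect minus the Mito-Q effect was 2.09 (SE 2.11, adjusted p = 0.755). In order of mean level, young CCCP (9.72 ± 6.98 CPM) was followed by old Mito-Q (2.24 ± 2.23 CPM), old control (0.289 ± 0.246 CPM) and young control (0.284 ± 0.436 CPM, SD), and all neighbours overlapped.

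The genes most like Cebpe were Camp (r = 0.911 over 17 libraries), S100a9 (0.902) and Ngp (0.899), all 3 of which encode proteins of neutrophil granules or cytosol. For deviations from the group means r was 0.915, 0.927 and 0.875, so here the likeness was between libraries within groups as well. The 3 genes are in a list of 18 secondary granule and mature neutrophil genes. Of the 18, 0 were called in any of the 5 tests by edgeR. At an unadjusted p below 0.05, 14 were higher with CCCP than in young controls, 10 were higher with Mito-Q than in old controls and 0 differed between old and young controls, and DESeq2 called 8, 8 and 0. Of all tested genes, 11.2%, 10% and 14.2% passed that threshold in either direction. Olfm4 of the 18, at most 0.819 CPM in young and 0 CPM in old controls, passed the read filter through groups in which it was high. Nothing is therefore read from these counts. Their median log2 fold change was 3.28 with CCCP, 2.95 with Mito-Q and -1.01 in old against young controls, beside 0.21, -0.12 and 0.17 for all tested genes.

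The summed level of these 18 genes was 9693, 1116, 13980, 18130 and 6080 CPM in young CCCP libraries, against 3471, 1055, 770 and 1093 CPM in young control libraries. It was 2212, 1260, 10450, 5937 and 15300 CPM in old Mito-Q libraries, against 1383, 2183 and 2116 CPM in old control libraries. CCCP 2, the CCCP library with the lowest Cebpe, had a sum within the range of the young controls, and its Cebpb was 17.4 CPM, in the middle of its group. Mito-Q 1 and 2, with 1 and 0 reads of Cebpe, had sums of 2212 and 1260 CPM, just above and just below the range of the old controls. Their Cebpb was 216 and 289 CPM. The part of the neutrophil transcripts in the Cebpe values was not tested.

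**Figure D4:**
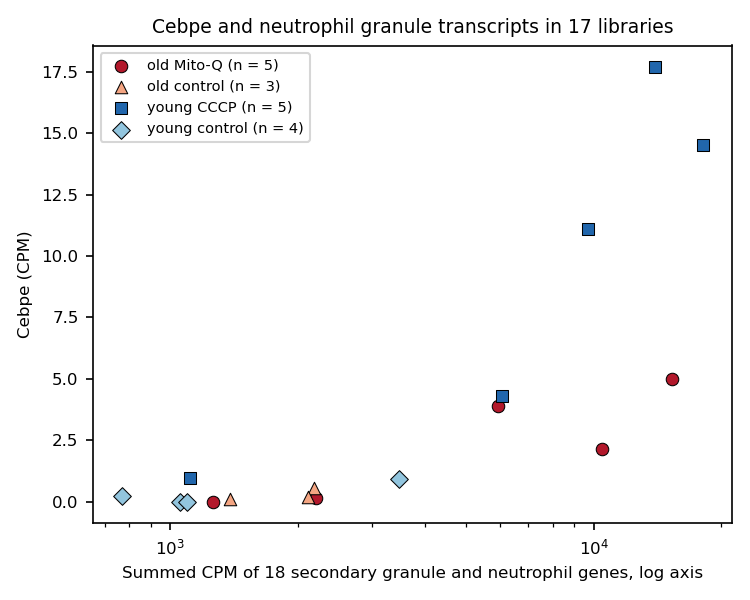
Cebpe in CPM against the summed CPM of 18 secondary granule and neutrophil genes (log axis) in the 17 libraries, with a symbol for each group. The 7 libraries with Cebpe above 2 CPM, 4 of CCCP and 3 of Mito-Q, are those with sums of 5937 CPM or more.

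Of 12 genes of primary granules and the precursors that make them, Elane and Ms4a3 rose with CCCP and 0 fell. Of all tested genes 0.0652% were called higher with CCCP. Elane, neutrophil elastase, averaged 432 ± 275 CPM with CCCP and 2.35 ± 1.02 CPM in young controls (SD), and edgeR's log2 fold change was 7.50 (SE 1.45) at an adjusted p of 0.0235. Ms4a3, a marker of granulocyte and monocyte progenitors, averaged 50.7 ± 26.8 CPM with CCCP and 1.37 ± 1.16 CPM in young controls (SD). Its log2 fold change was 5.25 (SE 1.15) at an adjusted p of 0.0213 in edgeR. Ms4a3, at most 2.83 CPM in young controls, passed the read filter through other groups in which it was higher. Its call is given as a value, and nothing is read from a count that includes it. Prtn3, proteinase 3, was higher in old controls than in young controls, by 2.23 on the log2 scale (SE 0.33, adjusted p = 0.00017, edgeR), and in old Mito-Q than in young controls (1.60, SE 0.29, adjusted p = 0.0132). None of the 12 was called between old Mito-Q and old control by edgeR or DESeq2. There 1 had an unadjusted p below 0.05, as had 10% of all tested genes. The median log2 fold change of the list was 2.14 with CCCP, 0.71 with Mito-Q against old controls and 1.51 in old against young controls. For all tested genes it was 0.21, -0.12 and 0.17.

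Cebpa, the C/EBP factor that opens the granulocyte and monocyte path and restrains HSC division, was barely detected. It had 20, 0, 11, 6 and 0 reads in old Mito-Q libraries, against 0, 8 and 1 in old control libraries. It had 1, 4, 0, 2 and 9 reads in young CCCP libraries, against 14, 31, 0 and 1 in young control libraries. Libraries with several reads and libraries with none occurred in every group, and 9 of 17 were at or under 3 reads. Cebpa passed the read filter through 4 libraries with 10 or more reads, from old Mito-Q and young control. Group means were 1.12 ± 1.21, 0.567 ± 0.833, 0.464 ± 0.583 and 1.55 ± 1.97 CPM in old Mito-Q, old control, young CCCP and young control (SD). Log2 fold changes were 0.97 with Mito-Q (SE 2.01) and -1.71 with CCCP (SE 1.78), with adjusted p of 0.940 and 0.786 in edgeR. With 1 library left out the Mito-Q value ran from 0.23 to 3.48 and the CCCP value from -2.72 to -0.51, so the sizes depended on single libraries. The simulation given below planted changes only in genes of higher average level. What size of difference could be detected for Cebpa was therefore not tested. The genes most like it were Snn (r = 0.741), Plin2 (0.674) and Thoc5 (0.673), the weakest likeness of the 8 factors.

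Cebpg, a C/EBP protein without an activation domain that pairs with other leucine zipper factors, had group means between 36.8 CPM (old Mito-Q) and 50.8 CPM (old control). It was measured at 47.0, 44.1, 25.7, 29.5 and 37.9 CPM in old Mito-Q libraries, against 16.4, 58.1 and 77.8 CPM in old control libraries. It was measured at 37.7, 59.8, 15.9, 41.6 and 39.99 CPM in young CCCP libraries, against 32.2, 30.1, 47.6 and 43.4 CPM in young control libraries. Both extremes of the old groups were old controls, and all groups overlapped. Log2 fold changes lay between -0.46 (SE 0.44, Mito-Q against old control) and 0.40 (SE 0.47, old control against young control), with adjusted p of 0.821 and 0.781 in edgeR. With CCCP the value was 0.03 (SE 0.41, adjusted p = 0.990). For deviations from group means, Cebpg and Cebpb had r = 0.770 over the 17 libraries, against 0.154 with the group means kept in. The genes most like Cebpg were Arl6ip1 (0.848), Mrpl50 (0.837) and Lyplal1 (0.830).

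Spi1, which encodes PU.1, had group means between 72.5 CPM (old Mito-Q) and 93.0 CPM (old control). It was measured at 52.4, 67.4, 64.6, 95.0 and 83.2 CPM in old Mito-Q libraries, against 70.9, 102 and 106 CPM in old control libraries. It was measured at 88.1, 79.5, 83.4, 66.8 and 79.8 CPM in young CCCP libraries, against 101, 89.5, 33.5 and 73.4 CPM in young control libraries. Young control 3 was the lowest of all 17 libraries, and the groups overlapped throughout. The log2 fold change was -0.36 with Mito-Q (SE 0.33, adjusted p = 0.809, edgeR), 0.09 with CCCP (SE 0.30, adjusted p = 0.952), 0.32 in old against young controls (SE 0.34, adjusted p = 0.763) and -0.04 for old Mito-Q against young control (SE 0.30, adjusted p = 1.0). Without young CCCP 3 and young control 3 the CCCP value was -0.16. Genes whose level was most like that of Spi1 included Trmt13 (r = 0.907) and Tmem177 (0.860).

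Of 24 myeloid cytokine receptors and PU.1 target genes, Flt3 was the 1 that passed the test in any comparison. Flt3, the receptor of FLT3 ligand and a mark of progenitors that have left the HSC state, averaged 11.1 ± 2.20 CPM in old Mito-Q, 10.4 ± 12.0 CPM in old control, 57.3 ± 14.1 CPM in young CCCP and 102 ± 28.1 CPM in young control libraries (SD). It was lower in old control (log2 fold change -3.27, SE 0.62, adjusted p = 0.00372, edgeR) and in old Mito-Q (-3.19, SE 0.50, adjusted p = 0.00244) than in young control. Csf3r, the G-CSF receptor, averaged 137 ± 48.9 CPM in old Mito-Q, 93.7 ± 25.2 CPM in old control, 139 ± 65.7 CPM in young CCCP and 154 ± 67.1 CPM in young control libraries (SD), and Csf1r, the M-CSF receptor, averaged between 1.74 and 3.57 CPM. With CCCP and with Mito-Q against old control 0 of the 24 were called by edgeR. At an unadjusted p below 0.05, 4 were higher and 0 lower with each compound, and DESeq2 called 2 with CCCP and 3 with Mito-Q. Of all tested genes 11.2% with CCCP and 10% with Mito-Q passed that threshold in either direction. Over all genes DESeq2 called 666 and 552. Nothing is read from the counts of this list.

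Among 26 factors known to act with or against PU.1 and Gfi1, 6 passed the test in at least 1 of the 5 tests, and Jun, Egr1, Egr2 and Klf4 of these are also on the immediate early list. Jun, a PU.1 coactivator, Egr1, which favours the macrophage path, Klf4 and Id1, an inhibitor of helix-loop-helix factors, rose with Mito-Q against old control and fell both with CCCP and in old control against young control. Egr1 averaged 2078 ± 234 CPM in old Mito-Q, 120 ± 15.4 CPM in old control, 41.2 ± 17.5 CPM in young CCCP and 1330 ± 354 CPM in young control libraries (SD). Id1, which is not on the immediate early list, averaged 507 ± 155 CPM in old Mito-Q, 3.46 ± 5.29 CPM in old control, 4.25 ± 2.69 CPM in young CCCP and 104 ± 16.6 CPM in young control libraries (SD). Id2 rose in old Mito-Q against young control (log2 fold change 2.15, SE 0.40, adjusted p = 0.015, edgeR). Runx1, Gata2, Gfi1b, Myb, Erg and Fli1 were among the 20 that were not called by edgeR in any of the 5 tests. Of the 26, DESeq2 called 7 lower in old against young controls and 7 higher with Mito-Q against old controls. With CCCP it called 1 higher and 5 lower. Over all genes DESeq2 called 1435, 552 and 666 in these comparisons, in either direction.

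Gfi1, a zinc finger repressor that supports neutrophil differentiation and limits HSC division, varied most between the old Mito-Q libraries. It was measured at 8.42, 6.04, 0.163, 56.2 and 34.9 CPM in old Mito-Q libraries, against 11.2, 5.52 and 17.7 CPM in old control libraries. The third Mito-Q value rested on 1 read, and the same group held the highest library of all. In young CCCP libraries Gfi1 was measured at 16.8, 16.8, 10.7, 20.6 and 20.3 CPM, against 24.0, 7.37, 15.9 and 10.8 CPM in young control libraries. Log2 fold changes were 0.88 with Mito-Q (SE 0.87, adjusted p = 0.832, edgeR), 0.23 with CCCP (SE 0.78, adjusted p = 0.954), -0.34 in old against young controls (SE 0.89, adjusted p = 0.921) and 0.54 for old Mito-Q against young control (SE 0.79, adjusted p = 0.984). Without old Mito-Q 4, the highest library, the last value was -0.23. Pdxp (r = 0.881), Rrp9 (0.860) and Zfp839 (0.842) were the genes most like Gfi1.

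Irf8, which drives monocyte and dendritic cell fates and restrains neutrophil production, was low to moderate in every group. It was measured at 31.2, 8.35, 9.31, 19.2 and 17.05 CPM in old Mito-Q libraries, against 10.9, 1.90 and 1.24 CPM in old control libraries. In young CCCP libraries it was measured at 13.9, 14.5, 9.14, 22.4 and 11.2 CPM, against 6.97, 14.3, 1.74 and 12.4 CPM in young control libraries. Of the Mito-Q libraries 3 of 5 lay above every old control, and old control 1 lay above the 2 lowest Mito-Q libraries. The log2 fold change was 1.84 with Mito-Q (SE 0.82, unadjusted p = 0.0331, adjusted p = 0.444, edgeR), the other factor beside Cebpb with an unadjusted p below 0.05 there. Without old control 1 it was 3.37 and the value in old against young controls was -2.45, neither of which was called. The lowest Mito-Q value with 1 library left out was 1.48. With all libraries it was 0.68 with CCCP (SE 0.70, adjusted p = 0.785), -0.91 in old against young controls (SE 0.81, adjusted p = 0.701) and 0.94 for old Mito-Q against young control (SE 0.71, adjusted p = 0.877). Mean levels were 17.02 ± 9.21 CPM in old Mito-Q, 4.70 ± 5.42 CPM in old control, 14.2 ± 5.05 CPM in young CCCP and 8.87 ± 5.68 CPM in young control libraries (SD).

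Other genes of the cells that Irf8 directs did not pass the test. Of 19 monocyte and dendritic cell genes, 16 had enough reads, and 0 were called in any of the 5 tests by edgeR. At an unadjusted p below 0.05, 2 were higher with Mito-Q than in old control. With CCCP 3 were higher and 1 lower than in young control. DESeq2 called 0 and 2. Of all tested genes 10% and 11.2% passed the unadjusted threshold in either direction. The summed level of the 19 genes ran from 1179 to 1827 CPM in old Mito-Q, from 1207 to 2369 CPM in old control, from 679 to 1059 CPM in young CCCP and from 982 to 1250 CPM in young control libraries. Most of it came from Cst3, Cd74 and Tcf4, with means of 610, 364 and 162 CPM over the 17 libraries. The median log2 fold change of the 16 genes was 0.61 with CCCP (9 positive) and -0.30 with Mito-Q (6 positive). For all tested genes it was 0.21 and -0.12. Batf3, a dendritic cell factor without enough reads to be tested, was at 0 in every library outside young CCCP. There it ran from 0 to 21.6 CPM, with a mean of 4.38 ± 9.62 CPM (SD). The highest library supplied nearly all of that mean. Of 10 other interferon regulatory factors and STAT genes, 0 were called by edgeR or DESeq2 in any group comparison, with 1 lower at an unadjusted p below 0.05 with CCCP and 0 with Mito-Q. Mito-Q 1, the library with the most Irf8, also had the highest summed level of 9 mast cell and basophil genes, at 259 CPM, whereas Mito-Q 5, with 224 CPM, had 17.05 CPM of Irf8. That sum ran from 18.4 to 259 CPM in old Mito-Q, from 10.3 to 32.0 CPM in old control, from 19.7 to 106 CPM in young CCCP and from 8.70 to 21.9 CPM in young control libraries, and its part in the Irf8 values was not tested. The genes most like Irf8 were Ptk2b (r = 0.864), Prickle2 (0.841) and Map3k5 (0.837).

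To compare levels between genes, CPM was divided by the exon length in kilobases. By the median over the 17 libraries Cebpb stood first at 108 CPM per kb, ahead of Spi1 at 29.6, Cebpg at 7.11, Cebpd at 5.65, Gfi1 at 4.98, Irf8 at 1.59, Cebpe at 0.741 and Cebpa at 0.0904 CPM per kb. By the mean of the 4 group means Cebpe, at 2.52 CPM per kb, stood above Irf8 at 1.59 CPM per kb. Its mean was 7.83 CPM per kb in young CCCP libraries, above those of Cebpg (6.94), Gfi1 (5.34), Cebpd (2.83) and Irf8 (2.02 CPM per kb) there, with an SD of 5.62 for Cebpe. In the 5 young CCCP libraries the order of Cebpb and Spi1 was turned round, with Cebpb between 8.92 and 14.02 CPM per kb and Spi1 between 24.8 and 32.7 CPM per kb. Old control 1 was the other library with less Cebpb than Spi1, at 24.8 and 26.3 CPM per kb. Among the C/EBP genes, Cebpb and Cebpd had r = 0.664 over the 17 libraries and -0.091 for deviations from group means. Cebpb and Cebpe had r = -0.554 and 0.044 by the same measures. In both pairs r was near 0 once the group means were removed, which is a description of 17 libraries with no test.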

How the data were processed

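The deposited files held raw counts of reads per Ensembl gene, 1 file per library, with 5 closing entries for reads outside genes, which were kept out of library sizes. Per the submitters' processing notes the authors trimmed reads with Trim Galore and aligned them with STAR 2.7 to GRCm38. How reads were counted, with which annotation and strand setting, and whether duplicates were removed was not given in the sources used here. GENCODE M21, of the same build, gave symbols, coordinates and exon lengths.

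The 17 libraries were fitted together in edgeR 4.0.16 (R 4.3.3, limma 3.58.1) with 4 group means, TMM factors, filterByExpr at a minimum count of 10 and robust quasi-likelihood dispersions. Two-sided tests were adjusted by Benjamini-Hochberg over 24523 genes, and an adjusted p below 0.05 was called. Levels are CPM with TMM factors, and correlations used log2 CPM with a prior count of 1. DESeq2 1.42.0, other scalings and filters, fewer groups, a replicate block and left-out libraries were alternatives. A count of 0 allows up to 3 reads, which covers counting error only, because PCR copies of a molecule are counted as separate reads. No libraries of a group were duplicates (lowest chi-square per degree of freedom 18.2).

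On counts simulated with 200 changed genes per comparison, 4-fold changes were called in 23.7% of genes for old control against young control, 31.3% for old Mito-Q against old control and 33.3% for young CCCP against young control. For 2-fold changes the shares were 1.45%, 4.29% and 2.9% in the same order. The factors and gene lists were chosen with earlier results of these data known. Named were all 8 factors, the 3 genes most like each (average log2 CPM above 2, without predicted models), up to 4 called genes of smallest p per list, and gate markers. A gene that this rule names is not reported here. The 3 most abundant genes of lists of other cell types were also covered by that rule, and for these lists the summed level is given. Csf3r, Csf1r, Batf3, Cd48 and the uncalled genes named from lists were chosen after their values were seen.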

Additional observations from a re-analysis of the deposited data

How the results depend on the processing

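Cebpb was called, with the same sign, in each of the 27 alternatives for old Mito-Q against old control (log2 fold change 1.46 to 2.03), the 28 for young CCCP against young control (-3.62 to -3.32) and the 26 for the difference of both effects (-5.53 to -4.79). In old against young controls it was called in 20 of 28. The count of factors called there was 0 without a read filter (adjusted p = 0.0584), with only the compared groups fitted (0.129) and within 1 well letter (0.130), and 0 to 1 with 1 library left out. DESeq2 gave a count of 2 with CCCP, Cebpb and Cebpe, from which nothing is read because Cebpe was tested through the groups in which it was high. The well-letter comparison, and the fit without the 3 libraries with over 60% of reads in no gene, were chosen after seeing the data. The count of all genes called moved more. For old against young controls it was 415, against 186 with only those groups, 1271 without young CCCP 3 and young control 3, 1207 without the 3 libraries of many unassigned reads, 1435 by DESeq2 and 125 to 755 with 1 library left out. The 415 were 128 higher and 287 lower, and upper-quartile factors gave 190 higher and 237 lower. For Mito-Q against old control it was 133, against 341 without young CCCP 3 and young control 3, 384 without the 3 libraries, 552 by DESeq2 and 79 to 219 with 1 library left out. For CCCP it was 176, against 324 without a filter, 111 with only those groups, 56 within 1 well letter and 666 by DESeq2. For old Mito-Q against young control it was 35, against 90 without a filter, 68 without young CCCP 3 and young control 3, 54 without the 3 libraries, 233 by DESeq2 and 14 to 54 with 1 library left out. For the difference it was 308, against 543 without a filter and 888 by DESeq2. The causes were not tested. Upper-quartile factors moved the median over all tested genes to 0.28 (log2) for old against young controls and to -0.25 for Mito-Q against old controls.

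Replicate numbers were not shown to pair libraries: libraries of different groups with the same number had deviations correlated at -0.071 to 0.338 (median 0.102), against a median of -0.014 for libraries with different numbers. With the replicate block no count of called factors changed, 404 genes were called for old against young controls and 168 with CCCP, and uncalled values changed sign: Cebpe 1.34 in old against young controls, Gfi1 -0.27 with Mito-Q, -0.002 with CCCP, -0.34 for old Mito-Q against young control and 0.27 in the difference, Cebpa 0.83 for old Mito-Q against young control and Cebpg -0.017 with CCCP. Other changes of sign were also among uncalled values. Cebpe in old against young controls (-0.03) was 0.044 with DESeq2 size factors, 0.12 with upper-quartile factors, 0.061 at a minimum count of 30, 0.40 without the 3 libraries, 0.039 in DESeq2 and -0.92 to 1.94 with 1 library left out. Cebpg was -0.063 (upper-quartile) and -0.23 (1 well letter) with CCCP, and for old Mito-Q against young control 0.062 without young CCCP 3 and young control 3 and 0.24 within 1 well letter. Spi1 was -0.046 in old against young controls within 1 well letter and -0.16 with CCCP without young CCCP 3 and young control 3. With 1 library left out, Cebpg ran from -0.037 to 0.88 and Gfi1 from -0.84 to 0.015 in old against young controls. With CCCP, Cebpg ran from -0.18 to 0.22 and Spi1 from -0.17 to 0.28. For old Mito-Q against young control, Cebpa ran from -1.18 to 0.73, Cebpg from -0.17 to 0.062, Spi1 from -0.28 to 0.15 and Gfi1 from -0.23 to 0.89, and in the difference Gfi1 ran from -1.16 to 0.12. Irf8, uncalled, ran from 1.48 to 3.37 with Mito-Q and from -2.45 to -0.55 in old against young controls, in each case farthest from 0 without old control 1. Low counts limit Cebpa and Cebpe most, with 9 and 8 of 17 libraries at or under 3 reads.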

Other observations

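Lists of other cell types were read beside the 8 factors. The summed level of 12 erythroid genes ran from 1939 to 3799 CPM in old Mito-Q, from 1783 to 4038 CPM in old control, from 1988 to 3268 CPM in young CCCP and from 1809 to 2232 CPM in young control libraries, most of it from Car2, which encodes a carbonic anhydrase. That of 14 B and T cell genes ran from 120 to 250 CPM in old Mito-Q, from 109 to 423 CPM in old control, from 126 to 221 CPM in young CCCP and from 147 to 199 CPM in young control libraries. That of 10 megakaryocyte and platelet genes ran from 683 to 977 CPM in old Mito-Q, from 800.0 to 933 CPM in old control, from 422 to 579 CPM in young CCCP and from 296 to 505 CPM in young control libraries. That of 10 endothelial and stromal genes ran from 121 to 191 CPM in old Mito-Q, from 99.7 to 170 CPM in old control, from 111 to 245 CPM in young CCCP and from 118 to 138 CPM in young control libraries. Of 12 erythroid genes, 12 B and T cell genes and 10 endothelial and stromal genes with enough reads, 0 were called by edgeR in any of the 5 tests. At an unadjusted p below 0.05, 4 erythroid, 0 lymphoid and 2 endothelial or stromal genes were higher with CCCP than in young controls. DESeq2 called 1, 0 and 0. Of all tested genes 11.2% passed the unadjusted threshold with CCCP in either direction. Of 9 megakaryocyte and platelet genes, Gp9, Vwf and Selp were higher in old control than in young control. Vwf also rose with CCCP, to 162 ± 47.9 CPM in young CCCP libraries, against 68.1 ± 8.99 CPM in young control libraries (SD), with a log2 fold change of 1.25 (adjusted p = 0.0335, edgeR's quasi-likelihood test). Of 15 HSC markers, 1 was called between old control and young control, Cd34, which was lower in old control (log2 fold change -1.54, adjusted p = 0.00307, edgeR). Between old Mito-Q and young control 1 marker was called higher and 1 lower. The higher was Slamf1 (log2 fold change 1.63, SE 0.29, adjusted p = 0.0103, edgeR).

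Among the 28 pairs of the 8 factors, Cebpb and Cebpg had the highest r for deviations from group means, at 0.770 over 17 libraries, and Cebpb and Irf8 the lowest, at -0.464. These are descriptions of the same libraries that enter the comparisons, and no test was made.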
